A study of Mus musculus with 33 samples.

Results

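Small leucine-rich proteoglycans are secreted proteins of the extracellular matrix, and 10 of their genes were followed through the development of the mouse frontal bone: Dcn, Bgn, Aspn, Lum, Fmod, Prelp, Kera, Omd, Epyc and Ogn. They were chosen by symbol from the 55401 genes of a table of raw read counts, and all 10 of 10 passed the filter on low counts, among 20073 genes tested. The libraries were made from polyadenylated RNA of the frontal bone of the mouse calvaria, with 3 libraries at each of 11 embryonic stages, 33 in all. E9, E10, E11 and E12 were sampled, and between and around them E8.5, E9.5, E10.5, E11.5, E12.5, E13.5 and E14.5, counted in days of embryonic development. The labels name no strain, genotype or treatment, and leave unsaid whether libraries of equal stage stem from different embryos, different pools or one preparation. The p-values therefore measure only the spread between these libraries, which are called a, b and c here after the ends of their column names.

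The proteins share a short core of leucine-rich repeats that binds collagen fibrils, and most of them carry chains of sulfated sugars. By structure they fall into classes: decorin, biglycan and asporin in class I, lumican, fibromodulin, keratocan, osteomodulin and the protein encoded by Prelp in class II, and epiphycan and osteoglycin in class III. In connective tissue they limit the width and spacing of collagen fibrils and hold growth factors such as those of the TGF-beta family, and in bone biglycan, decorin, asporin and osteomodulin are known parts of the matrix that osteoblasts lay down.

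Each library held between 14516518 and 19964404 counts (median 17081223). Levels are CPM, counts per 1000000 after scaling each library for its total and its composition. A value with an error is the mean ± SD of a stage (n = 3). In whole tissue, fewer cells of a type and less RNA per cell cannot be told apart. Besides skeletal tissue, the libraries held others: summed over 6 markers, neuronal genes lay at 148 to 152 CPM at E8.5, 2656 to 2722 at E11.5 and 538 to 557 at E14.5, and 5 surface epithelium genes lay at 50.3 to 53.8 CPM at E8.5 and 1026 to 1186 at E14.5. The 8 osteoblast markers summed to 42.9 to 50.1 CPM at E8.5, 51.0 to 55.8 at E11.5, 29.1 to 34.6 at E12 and 599 to 628 at E14.5. Ibsp, which encodes a mineral-binding protein of osteoblasts, stood at 15.1 ± 0.634 CPM at E11.5 but at 0.037 ± 0.0641 at E12, so the labelled order of stages was not an order of bone markers. The E12 libraries were the least alike, with a lowest correlation across genes of 0.965 against 0.975 at E13.5 and at least 0.988 elsewhere. At E9.5 all 3 libraries carried genes of contractile smooth muscle that were low at the stages on either side, with values given beside the results they touch.

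The 10 genes lie on 4 chromosomes, several side by side (GRCm38, spans from the GENCODE M21 annotation). On chromosome 10, Dcn (ENSMUSG00000019929, chr10:97479609-97518143), Lum (ENSMUSG00000036446, chr10:97565128-97572703), Kera (ENSMUSG00000019932, chr10:97606879-97613692) and Epyc (ENSMUSG00000019936, chr10:97644068-97682454) follow one another on the plus strand. On chromosome 13, Aspn (ENSMUSG00000021388, chr13:49544443-49567565), Omd (ENSMUSG00000048368, chr13:49582462-49592822) and Ogn (ENSMUSG00000021390, chr13:49608046-49624501) also lie on the plus strand, within the span of Cenpp, a centromere protein gene on the opposite strand. Exons of Aspn share 7 bases with exons of Cenpp, and exons of Omd and Ogn share 0. The highest stage mean of Cenpp was 15.6 CPM, and since the strand setting of the counting is not given in the sources used here, Aspn counts of a few reads could include it. Prelp (ENSMUSG00000041577, chr1:133910304-133921414, minus strand) and Fmod (ENSMUSG00000041559, chr1:134037254-134048277, plus strand) are on chromosome 1, and Bgn (ENSMUSG00000031375, chrX:73483602-73495933, plus strand) is on the X chromosome. Antisense genes that did not pass the filter, Gm15851 and Gm10754, overlap Prelp and Epyc.

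Sequence upstream of the start was looked at for the 3 neighbours on chromosome 13, for Bgn, which had reads from the first stage, and for Epyc, which had none there. RefSeq promoters (GRCm38.p6) matched 8 of the 10 genes, all but Dcn and Lum. The sequence before Lum, which like Bgn had reads from the first stage, could therefore not be compared. The 250 bases before each start are given 5′ to 3′ on the plus strand, which is the strand of all 5 genes: Bgn chrX:73483351-73483600, Aspn chr13:49544193-49544442, Omd chr13:49582212-49582461, Ogn chr13:49607765-49608014 and Epyc chr10:97643818-97644067. Capitals mark matches, on either strand, to TATAAA (the TATA box), TGTGGT (bound by RUNX factors), TGANTCA (AP-1) or GGAATG (TEAD).
Bgn: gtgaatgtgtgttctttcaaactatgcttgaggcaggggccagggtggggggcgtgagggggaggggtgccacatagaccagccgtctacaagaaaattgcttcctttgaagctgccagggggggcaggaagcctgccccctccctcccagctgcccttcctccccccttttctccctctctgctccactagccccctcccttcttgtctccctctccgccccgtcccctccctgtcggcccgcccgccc
Aspn: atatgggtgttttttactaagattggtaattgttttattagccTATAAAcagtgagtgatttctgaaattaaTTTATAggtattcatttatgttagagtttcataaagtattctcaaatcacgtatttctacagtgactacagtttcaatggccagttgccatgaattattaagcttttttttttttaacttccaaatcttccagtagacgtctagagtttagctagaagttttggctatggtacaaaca
Omd: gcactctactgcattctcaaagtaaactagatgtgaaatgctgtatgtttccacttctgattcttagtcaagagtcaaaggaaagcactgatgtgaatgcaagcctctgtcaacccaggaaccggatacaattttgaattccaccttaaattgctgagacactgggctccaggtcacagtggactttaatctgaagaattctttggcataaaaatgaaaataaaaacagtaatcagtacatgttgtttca
Ogn: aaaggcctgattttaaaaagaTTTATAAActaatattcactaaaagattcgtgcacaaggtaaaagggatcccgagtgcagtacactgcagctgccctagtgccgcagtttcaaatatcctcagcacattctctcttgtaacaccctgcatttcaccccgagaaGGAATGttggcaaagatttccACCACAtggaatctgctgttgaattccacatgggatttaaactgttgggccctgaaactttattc
Epyc: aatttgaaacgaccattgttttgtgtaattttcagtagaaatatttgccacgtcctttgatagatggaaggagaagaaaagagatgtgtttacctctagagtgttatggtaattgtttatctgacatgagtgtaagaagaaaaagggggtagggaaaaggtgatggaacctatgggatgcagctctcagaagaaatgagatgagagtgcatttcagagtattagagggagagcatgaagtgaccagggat
The Bgn window was 64.4% G and C with 7 CG pairs, and those of Aspn, Omd, Ogn and Epyc were 30% with 2, 38.4% with 1, 42% with 4 and 39.2% with 2. The matched windows not printed, of Prelp, Fmod and Kera, were 55.6% with 5, 51.2% with 2 and 42.4% with 1. Prelp and Fmod were low at E8.5, and Kera, like Epyc, had no count there. The Kera window lies wholly within annotated exons. Over 27025 promoters the median was 52% and 6 CG pairs. Aspn held TATAAA at position -207 on the plus strand and -178 on the minus strand, counted back from the start to the leftmost base of the match. Ogn held overlapping TATAAA matches at -227 on the plus strand and -229 on the minus strand, GGAATG at -86 on the plus strand and TGTGGT at -65 on the minus strand. The windows of Bgn, Omd and Epyc had no match to the 4 motifs. Of all promoters, 13.0% held TATAAA, 14.2% TGTGGT, 6.87% TGANTCA and 12.6% GGAATG in windows of that length. A match is a run of letters and was not tested as a binding site.

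All 10 genes were higher at E14.5 than at E8.5 in edgeR's quasi-likelihood test with Benjamini-Hochberg adjustment, against 41.1% of all genes tested. None was lower, against 33.5% of all genes. All 10 also differed between stages in the test of any change, as did 95.3% of genes, so that count says little about the family. With library totals alone as scaling, 71.3% of all genes called between E8.5 and E14.5 were higher, against 55.0% here, and 10 members passed. The median log2 fold change from E8.5 to E14.5 was 7.46 for the 10 members, or 6.88 with Epyc and Kera at their lower bounds, and 0.16 for all genes. Together the 10 genes took 0.00555% ± 0.000467 of all counts at E8.5 and 0.227% ± 0.00992 at E14.5.

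**Figure D1:**
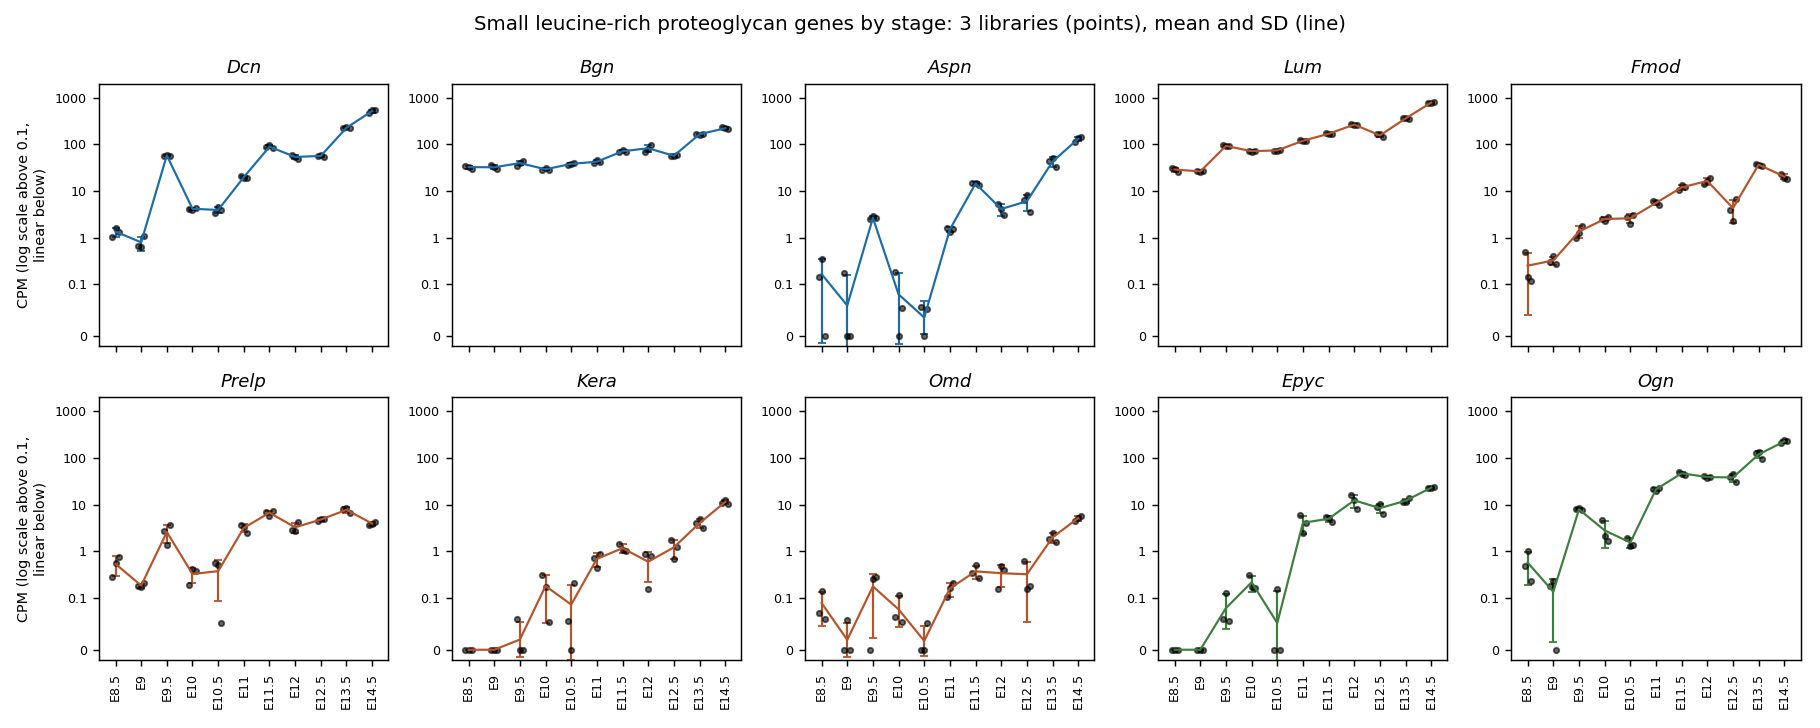
Levels of the 10 genes in CPM (vertical axis, logarithmic above 0.1 and linear below) by embryonic stage (horizontal axis); points are the 3 libraries of each stage, and the line and bars are their mean and SD. Class I genes are blue, class II brown and class III green. Dcn rises from 1.34 to 516 CPM with a separate peak at E9.5, Bgn starts at 32.5 CPM, and Fmod and Prelp are highest at E13.5.

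Of class I, Dcn encodes decorin, which coats collagen fibrils and carries a chondroitin or dermatan sulfate chain. Its levels at E8.5 were 1.05, 1.63 and 1.34 CPM in libraries a, b and c, and at E14.5 they were 475, 536 and 538. The lowest library at E14.5 was far above the highest at E8.5, with a log2 fold change of 8.58 ± 0.14 (adjusted p = 6.28e-28). Errors of log2 fold changes are approximate standard errors, derived from the F test. Its course had 2 peaks. The means were 0.791 ± 0.263 CPM at E9, 57.8 ± 0.99 at E9.5, 4.15 ± 0.234 at E10 and 3.91 ± 0.611 at E10.5. They then went through 19.8 ± 0.985 at E11, 88.9 ± 6.51 at E11.5 and 53.6 ± 5.28 at E12 to 56.3 ± 2.70 at E12.5, and 226 ± 4.02 came at E13.5. The E9.5 level was 11.2% of that at E14.5.

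Bgn encodes biglycan, a relative of decorin that is abundant in bone matrix. It had the highest level of class I at the start, also per kilobase, at 34.7, 33.2 and 29.6 CPM at E8.5, which was 14.7% of its final level. Its E14.5 libraries read 230, 223 and 211 CPM, all above every E8.5 library (log2 fold change 2.77 ± 0.10, adjusted p = 2.46e-20). From E8.5 to E11 its stage means stayed between 29.2 and 42.4 CPM. At E11.5 and E12 they were 70.8 ± 3.38 and 82.4 ± 13.3 CPM, and at E12.5 and E13.5 they were 56.7 ± 1.83 and 164 ± 3.95.

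Aspn encodes asporin, which lacks the sugar chain of its class and binds collagen and TGF-beta. It had 2, 5 and 0 counts in the E8.5 libraries (0.14, 0.355 and 0 CPM) and 113, 138 and 142 CPM at E14.5. The groups did not overlap, and the log2 fold change was 9.66 ± 0.37 (adjusted p = 9.66e-20). At E10.5 it fell to 2 counts over the 3 libraries, after 2.64 ± 0.196 CPM at E9.5. From E11 to E12 the means were 1.5 ± 0.158, 14.4 ± 0.854 and 4.10 ± 1.15 CPM, and at E12.5 and E13.5 they were 6.01 ± 2.22 and 42.7 ± 9.76.

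Of class II, Lum encodes lumican, a keratan sulfate proteoglycan of connective tissue and cornea. Like Bgn it was present from the start, at 31.7, 29.0 and 25.7 CPM at E8.5, and it reached 774, 772 and 807 CPM at E14.5. The log2 fold change was 4.77 ± 0.08 (adjusted p = 1.98e-27), and no E14.5 library came near an E8.5 one. Its means climbed in most steps, from 26.2 ± 1.04 CPM at E9 to 92.3 ± 3.14 at E9.5, 119 ± 4.64 at E11 and 265 ± 8.75 at E12. Over E12.5 and E13.5 the means were 155 ± 12.99 and 359 ± 10.8.

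Fmod encodes fibromodulin, which guides the growth of collagen fibrils and is prominent in tendon. Its E8.5 libraries had 7, 2 and 2 counts (0.491, 0.142 and 0.117 CPM), and at E14.5 they had 23.4, 19.3 and 18.3 CPM (log2 fold change 6.35 ± 0.36, adjusted p = 6.92e-16). The groups did not overlap, but E14.5 was not its highest stage. Fmod stood at 16.4 ± 2.82 CPM at E12, only 4.28 ± 2.22 at E12.5, with 3.96, 2.23 and 6.64 in the libraries, then 36.6 ± 1.78 a day later. The E13.5 mean was 180% of the E14.5 mean.

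Prelp encodes a protein that is thought to anchor basement membranes to connective tissue. It was low at E8.5 (0.281, 0.568 and 0.760 CPM) and modest at E14.5 (3.64, 3.80 and 4.35 CPM), without overlap (log2 fold change 2.83 ± 0.36, adjusted p = 3.25e-08). Its highest means were 7.75 ± 0.999 CPM at E13.5, 197% of the E14.5 level, and 6.70 ± 0.795 at E11.5. At E12 the mean was 3.27 ± 0.779.

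Kera encodes keratocan, a keratan sulfate proteoglycan best known from the cornea, and Omd encodes osteomodulin, also called osteoadherin, a mineral-binding protein of bone. Kera was without a count at E8.5 and E9 and reached 11.12, 12.48 and 10.53 CPM by E14.5. Against the limit that a count of 0 allows, 3 counts over the group or 0.066 CPM, it was at least 172-fold higher. This limit covers counting error only. The quasi-likelihood test, which is of the fitted change of Kera and not of this bound, gave an adjusted p of 1.64e-12. Omd had 1, 2 and 1 counts at E8.5 and the lowest total of the 10, 496 counts over all 33 libraries. It reached 4.38, 5.30 and 5.77 CPM at E14.5, all above the E8.5 libraries (log2 fold change 5.76 ± 0.54, adjusted p = 7.46e-11). In CPM, most of the rise of both genes came after E12.5, where Kera stood at 1.21 ± 0.524 and Omd at 0.322 ± 0.268. A day later they stood at 4.01 ± 0.905 and 1.99 ± 0.460. By fold, Kera at E12.5 was already at least 18.1-fold above its limit at E8.5.

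Of class III, Epyc encodes epiphycan, a dermatan sulfate proteoglycan first known from growth cartilage, and Ogn encodes osteoglycin, also called mimecan, a widespread matrix protein. Epyc too was without a count at E8.5 and E9, and it reached 22.8, 22.6 and 24.2 CPM by E14.5. That is at least 352-fold above the limit of 0.066 CPM. The quasi-likelihood test, which is of the fitted change and not of this bound, gave an adjusted p of 9.07e-15. Its counts were 0, 3 and 0 at E10.5 and 114, 44 and 75 at E11. From E11 to E12 the means were 4.08 ± 1.71, 4.98 ± 0.629 and 12.4 ± 4.06 CPM, then 8.42 ± 1.92 and 12.1 ± 1.31 over E12.5 and E13.5, so it had 53.4% of its final level by E12. Ogn had 7, 14 and 4 counts at E8.5 (0.491, 0.994 and 0.234 CPM) and 206, 242 and 234 CPM at E14.5. The groups were far apart, with a log2 fold change of 8.67 ± 0.30 (adjusted p = 5.72e-21). Its means were 7.93 ± 0.435 CPM at E9.5 and 1.54 ± 0.364 at E10.5. From E11 they were 21.2 ± 1.72, 47.0 ± 3.91 (E11.5), 39.1 ± 2.33 (E12), 38.3 ± 6.93 (E12.5) and 119 ± 20.3 CPM (E13.5).

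The onset of each gene was taken as the earliest stage from which it was called higher than E8.5 by at least 2-fold at that stage and at every later one. Because all of these comparisons use the same E8.5 libraries, they are not independent of each other. Dcn, Lum, Fmod and Ogn had their onset at E9.5, Aspn, Prelp, Kera and Epyc at E11, Omd at E11.5 and Bgn at E13.5. The number of members at least 2-fold above E8.5 was 0 at E9, where 3.15% of all genes were, 6 at E9.5 (7.80%), 6 at E10 (16.8%) and 4 at E10.5 (15.3%). It was 8 at E11 (24.9%), 10 at E11.5 (28.4%), 10 at E12 (23.3%), 9 at E12.5 (23.8%), 10 at E13.5 (27.1%) and 10 at E14.5 (30.2%). The member missing at E12.5 was Bgn, with a log2 fold change over E8.5 of 0.80 ± 0.10. Bgn had passed at E11.5 (1.13 ± 0.10) and E12 (1.35 ± 0.10), so its late onset rests on E12.5 alone. It also started from a higher level than most members, at 32.5 CPM at E8.5.

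Several genes passed early and dropped back. Aspn and Prelp were at least 2-fold above E8.5 at E9.5 but not at E10 or E10.5. Kera and Epyc passed at E10, from 5, 3 and 1 counts and from 5, 3 and 3 counts, but not at E10.5. With the E9.5 libraries left out, the onset of Dcn, Lum, Fmod and Ogn became E10, the next stage. Ogn moved to E11 without library c of E8.5, and Kera to E10 without library b of E10.5. The onset of Omd rests on few counts: it moved to between E12 and E13.5 when 1 of 6 single libraries was left out (a or c of E8.5, b of E11.5, b or c of E12, a of E12.5), and to E13.5 in DESeq2, with no filter on low counts or with the gene length trend removed. For Bgn it moved to E11.5 when libraries were scaled by totals alone. With the libraries of E11.5, E12 and also E13.5 left out it was E14.5 for Bgn and Omd, the next stage left after E12.5.

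**Figure D2:**
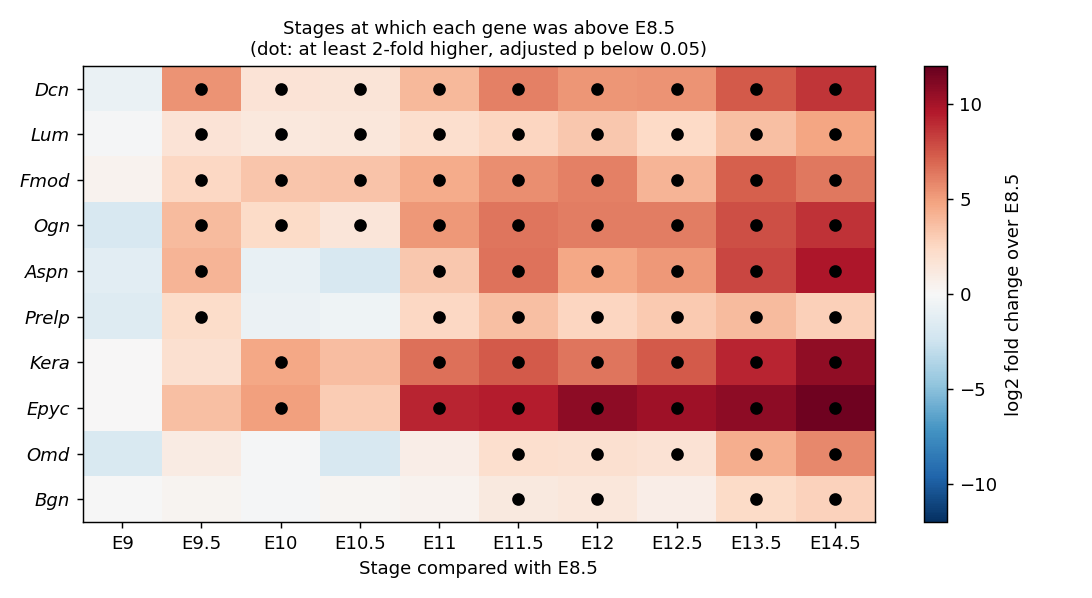
Log2 fold change over E8.5 (colour) for each gene (rows, by onset) and stage (columns); dots mark genes at least 2-fold higher with an adjusted p below 0.05. Fitted values of Epyc and Kera depend on the prior count, since neither had a count at E8.5. Dots run without a gap from E9.5 for Dcn, Lum, Fmod and Ogn and start last for Omd and Bgn.

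The first rise, from E9 to E9.5, took in 7 of the 10 genes, against 11.1% of all genes higher in that step: Dcn, Bgn, Aspn, Lum, Fmod, Prelp and Ogn. Dcn had the largest fitted change of the 7, with a log2 fold change of 6.20 ± 0.15 (adjusted p = 2.07e-23), and its 3 libraries at E9.5 read 57.2, 59.0 and 57.3 CPM against 0.648, 0.631 and 1.10 at E9. Ogn rose by 5.73 ± 0.44 (adjusted p = 4.03e-11), to 7.89, 8.39 and 7.52 CPM. Prelp rose by 3.78 ± 0.45 (adjusted p = 3.09e-07), to 2.77, 1.40 and 3.59 CPM, and Lum by 1.82 ± 0.08 (adjusted p = 1.74e-17), to 95.9, 89.8 and 91.3 CPM. Aspn went from 3 counts over the E9 libraries to 42, 45 and 47, a ratio of 43.1 with a counting interval of 14.4 to 212. None of these 5 genes had overlapping groups. Bgn rose by only 0.30 ± 0.10 (adjusted p = 0.0266) with overlapping libraries, and no longer passed without b or c of E9 or b or c of E9.5.

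From E9.5 to E10, 6 of the 10 were lower, against 12.3% of all genes: Dcn, Bgn, Aspn, Lum, Prelp and Ogn. Dcn fell by 3.80 ± 0.11 on the log2 scale (adjusted p = 2.28e-20), Aspn by 4.96 ± 0.60 (adjusted p = 2.35e-07), Prelp by 2.96 ± 0.40 (adjusted p = 1.48e-06) and Ogn by 1.52 ± 0.25 (adjusted p = 2.95e-05). For Lum and Bgn the falls were small, at 0.37 ± 0.07 and 0.44 ± 0.10, and Lum kept most of its gain. Fmod went the other way, at 0.88 ± 0.32 (adjusted p = 0.0372), a value that did not pass without a or b of E9.5, a or c of E10, or b of E12.

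Genes of other tissues moved with this E9.5 peak in the same 3 libraries. Contractile smooth muscle genes (Actg2, Myh11, Cnn1 and Des, chosen after their values were seen) summed to 145 to 157 CPM at E9.5, against 5.89 to 8.01 at E9 and 6.23 to 6.32 at E10. That all 4 rose into E9.5 and fell out of it adds nothing as a test, since they were chosen by their values. Actg2, a smooth muscle actin of gut and bladder, went from 0.0971 ± 0.0896 CPM at E9 to 64.6 ± 4.67 at E9.5 and 0.295 ± 0.132 at E10. The 6 pericyte and smooth muscle markers summed to 302 to 310 CPM at E9.5, against 101 to 105 and 105 to 120 at the stages beside it. In this list 4 of 6 were higher and then 4 of 6 lower, against 11.1% and 12.3% of all genes. A list of 4 genes of class II antigen presentation was also chosen after their values were seen. Its sums were 19.0 to 22.1 CPM at E9.5, 10.1 to 12.4 at E9 and 2.56 to 4.62 at E10. Among 6 fibroblast markers 5 rose into E9.5, but their sum went from 81.8 to 102.5 CPM at E9 to 158 to 169 at E9.5 and 175 to 189 at E10. Of the 6, 3 then fell into E10, with a median log2 fold change of -1.32 for the list. Those were Dpt (0.0966 ± 0.088 CPM at E9, 11.7 ± 1.59 at E9.5, 0.0571 ± 0.0547 at E10), Mfap5 (means of 0.179, 11.99 and 0.304) and Col14a1 (2.40, 11.6 and 1.9), while Pdgfra went from 108 ± 4.12 CPM at E9.5 to 159 ± 7.37 at E10. Osteoblast markers did not move with the peak: their sum was 27.9 to 32.5 CPM at E9.5, and of the 7 tested 0 rose and 2 fell. The part of other tissues in the E9.5 levels of these proteoglycans was not tested.

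**Figure D3:**
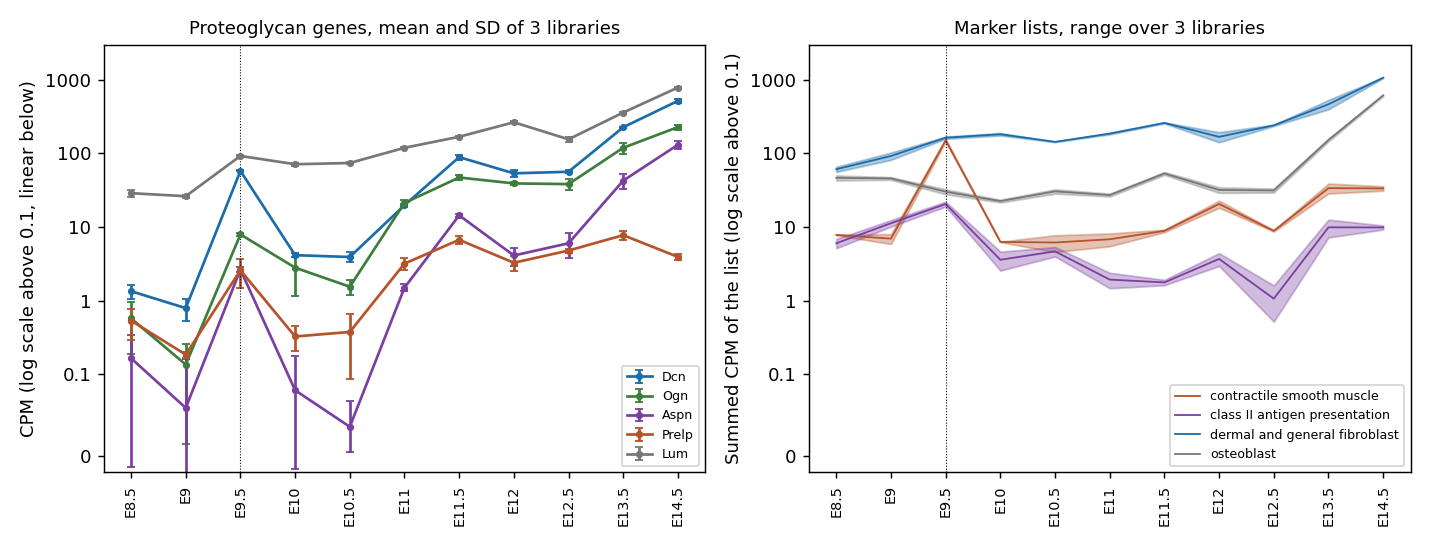
Left, CPM of 5 proteoglycan genes by stage (mean and SD of 3 libraries); right, summed CPM of 4 marker lists by stage (range over 3 libraries); vertical axes are logarithmic above 0.1 and the dotted line marks E9.5. Dcn reaches 57.8 CPM and the contractile smooth muscle list 145 to 157 CPM at E9.5, and both are low at E9 and E10.

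By E10.5, 4 members were higher than at E8.5 (Dcn, Lum, Fmod and Ogn), against 28.2% of all genes. The log2 fold changes were 1.54 ± 0.16 for Dcn, 1.36 ± 0.07 for Lum, 3.38 ± 0.45 for Fmod and 1.46 ± 0.44 for Ogn, the last with an adjusted p of 0.00701. In the steps not described elsewhere, 1 member fell from E8.5 to E9, Dcn by 0.78 ± 0.22 with overlapping libraries (7.66% of all genes were lower), and 1 rose from E10 to E10.5, Bgn by 0.38 ± 0.10 (5.73% were higher). The first call was lost without b or c of E8.5 or a or b of E9, and the second without a or c of E10. The call of Ogn was lost without library c of E8.5 (1.04, adjusted p = 0.0697). For Bgn the value was 0.23 ± 0.10 (adjusted p = 0.0551), and for Prelp -0.55 ± 0.51 (adjusted p = 0.38). Kera had 1, 0 and 4 counts at E10.5 and passed only when library b of that stage was left out. Aspn and Omd had 2 counts and 1 count over the 3 libraries at E10.5, against 7 and 4 counts at E8.5, so that no direction was detectable at this depth.

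A broad rise came next. From E10.5 to E11, 9 of the 10 members were higher, against 19.2% of all genes, and Bgn alone did not pass. Dcn rose by 2.33 ± 0.11 (adjusted p = 7.01e-16), Ogn by 3.78 ± 0.25 (adjusted p = 7.59e-13) and Prelp by 3.08 ± 0.37 (adjusted p = 1.12e-07). Epyc went from 3 counts to 233 over the 3 libraries, a ratio of 78.0 with a counting interval of 26.4 to 381, and Aspn by a ratio of 42.7 (11.46 to 358). Lum rose by 0.69 ± 0.07, Fmod by 1.09 ± 0.25 and Kera by 2.87 ± 0.68. Omd went from 1 count to 9, a ratio of 9.04 (1.25 to 396), and its call (adjusted p = 0.0439) was lost without a of E8.5, a or b of E10.5, or b or c of E11. Lens markers also appeared at E11, summing to 64.6 to 72.7 CPM against 1.80 to 2.06 at E10.5. Of 4 cornea markers, the other eye tissue looked at, the sum was 21.4 to 22.7 CPM against 16.3 to 16.9. Only 2 of the 4 passed the filter on low counts. Krt12 and Aldh3a1, which mark corneal epithelium, had no count at E11, nor at E9.5. Genes this low cannot tell whether corneal tissue was present. Sums of other lists moved in the same step: surface epithelium from 14.4 to 17.2 CPM to 57.7 to 60.4, skeletal muscle from 3.29 to 4.43 to 18.1 to 23.5, tendon from 13.8 to 15.9 to 30.0 to 32.5 and neurons from 1184 to 1217 to 2536 to 2574. The parts of these tissues in the levels of the members were not tested.

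From E11 to E11.5, 7 members rose, against 10.7% of all genes: Dcn by 2.17 ± 0.10, Aspn by 3.25 ± 0.27, Ogn by 1.15 ± 0.19, Fmod by 1.10 ± 0.22, Prelp by 1.07 ± 0.26, Bgn by 0.74 ± 0.10 and Lum by 0.50 ± 0.07. Epyc, Kera and Omd did not pass. In the same step lens markers went back to 1.74 to 3.18 CPM.

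At E12 the members parted. Between E11.5 and E12, 3 were lower (Dcn, Aspn and Prelp; 35.6% of all genes were lower) and 4 were higher (Bgn, Lum, Fmod and Epyc; 33.3% of all genes). Aspn fell by 1.83 ± 0.25 (adjusted p = 1.8e-07), from 15.2, 14.6 and 13.48 CPM to 5.29, 4.02 and 3.0. Dcn fell by 0.73 ± 0.09 (adjusted p = 6.45e-08) and Prelp by 1.01 ± 0.26 (adjusted p = 0.00127). Lum rose by 0.65 ± 0.07 (adjusted p = 4.14e-09), from 171, 168 and 165 CPM to 274, 257 and 262, and Epyc by 1.30 ± 0.25 (adjusted p = 6.79e-05). The values of Bgn, 0.22 ± 0.09 (adjusted p = 0.0409), and Fmod, 0.47 ± 0.21 (adjusted p = 0.0479), passed narrowly. Both were lost in DESeq2. Bgn was also lost without a of E8.5, a or c of E11.5 or b or c of E12, and Fmod with 24 of the 33 libraries left out one at a time. With libraries scaled by totals alone Bgn stood at -0.14. Between E12 and E12.5, Lum fell by 0.77 ± 0.07, Fmod by 1.96 ± 0.23 and Bgn by 0.54 ± 0.10, as did 31.0% of all genes. The shares of all genes called in the steps into and out of E12 were high, and the member counts there lie near them. In the same steps the sums of osteoblast markers and of lens markers also changed, the latter to 36.8 to 62.6 CPM at E12 and 2.01 to 2.43 at E12.5, and their part in these differences was not tested.

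Over the longer interval from E10.5 to E12.5, which leaves out the stages between, all 10 members were higher, against 18.8% of all genes. The values ran from 0.58 ± 0.10 for Bgn, 0.71 ± 0.26 for Fmod and 1.07 ± 0.07 for Lum to 3.84 ± 0.11 for Dcn and 4.63 ± 0.25 for Ogn. Aspn, with 2 counts at E10.5, changed by a ratio of 173 with a counting interval of 47.6 to 1437. The Fmod libraries of both stages overlapped, and its call (adjusted p = 0.0339) was lost without a or b of E10.5 or a or c of E12.5, with values of 0.24 to 0.75.

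The last interval, E12.5 to E14.5, raised 9 of the 10 members, against 25.3% of all genes, and the median log2 fold change of the 10 was 2.45 against -0.03 for all genes. Aspn rose by 4.43 ± 0.23 (adjusted p = 4.93e-16), Omd by 3.99 ± 0.43 (adjusted p = 3.23e-09), Kera by 3.23 ± 0.34 (adjusted p = 9.36e-09) and Dcn by 3.20 ± 0.10 (adjusted p = 1.76e-21). The rises of Ogn (2.57 ± 0.19), Lum (2.34 ± 0.07), Fmod (2.26 ± 0.23), Bgn (1.97 ± 0.10) and Epyc (1.46 ± 0.24) were smaller. Prelp stood at -0.28 ± 0.26 (adjusted p = 0.373).

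By single steps, 9 members rose from E12.5 to E13.5, against 27.2% of all genes, the exception being Epyc. From E13.5 to E14.5, 8 rose (24.0% of all genes) and 2 fell (26.9% of all genes). Those that fell were Fmod, by 0.85 ± 0.20 (adjusted p = 0.000673), from 38.4, 36.6 and 34.9 CPM to 23.4, 19.3 and 18.3, and Prelp, by 0.98 ± 0.25 (adjusted p = 0.00184), from 8.17, 8.46 and 6.61 CPM to 3.64, 3.80 and 4.35. Neither pair of groups overlapped. In the same step Lum rose by 1.13 ± 0.07, Dcn by 1.19 ± 0.09, Aspn by 1.62 ± 0.20, Kera by 1.49 ± 0.30, Omd by 1.36 ± 0.34, Epyc by 0.94 ± 0.23, Ogn by 0.93 ± 0.18 and Bgn by 0.43 ± 0.09. The earlier rise of Prelp, by 0.69 ± 0.25 into E13.5 (adjusted p = 0.0205), was lost without a of E12.5 or a or b of E13.5.

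Markers of several tissues were higher at E14.5 than at E12.5, an interval in which 25.3% of all genes were higher. Of all genes called in it, 46.9% were higher and the rest lower. The osteoblast sum went from 29.4 to 33.3 CPM to 599 to 628, with 7 of 7 tested markers higher. The fibroblast sum went from 236 to 245 CPM to 1052 to 1081 (6 of 6 higher), that of tendon from 47.8 to 50.4 to 172 to 180 (5 of 6), that of meninges from 75.3 to 89.8 to 201 to 207 (6 of 6) and that of skeletal muscle from 16.8 to 20.7 to 243 to 275 (6 of 6). Surface epithelium went from 75.1 to 87.1 CPM to 1026 to 1186 (5 of 5 higher), and pericyte and smooth muscle from 179 to 199.7 to 367 to 405 (6 of 6). Of 7 cartilage markers 5 were higher and 2 lower. Neuronal markers went down, from 1565 to 1584 CPM to 538 to 557, with 4 of 6 lower and 1 higher. The meninges sum was higher in between, at 294 to 352 CPM at E13.5. From E13.5 to E14.5, 6 of 6 meninges and 6 of 6 neuronal markers were lower, against 26.9% of all genes. In that step 5 of 7 osteoblast and 6 of 6 fibroblast markers were higher, against 24.0% of all genes. The parts of these tissues in the late rise of the proteoglycans, or in the falls of Fmod and Prelp, were not tested.

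To compare the size of the late rise between members without regard to how libraries are scaled, the log2 ratio of each pair of genes within a library was compared between the 6 libraries of E12 and E12.5 and the 6 of E13.5 and E14.5. Exact two-sided permutation tests over libraries were run for all 45 pairs and adjusted together. They treat the 6 libraries of an arm as interchangeable, although each arm joins different stages. Their p-values therefore do not measure the spread between stages. The ratio changed in 26 pairs and did not pass in 19. In this design the smallest p is 0.00216, or 0.00573 after adjustment. Aspn rose more than 6 of the 9 other members and less than 0 of them, and Omd more than 5 and less than 0. Dcn rose more than 5 and less than 1, Kera more than 4 and less than 0, and Ogn more than 4 and less than 3. Omd and Kera had few counts in the earlier arm, so the size of their rise leans on the prior count of 2. In libraries a, b and c, Omd had 2, 6 and 7 counts at E12 and 11, 3 and 3 at E12.5. Kera had 11, 2 and 14 at E12. At the other end, Bgn and Lum each rose more than 1 member and less than 5, Prelp less than 5 and more than 0, and Epyc less than 7 and more than 0. Fmod differed from 0 of the others at this threshold, with means of 16.4 and 4.28 CPM at the stages of the earlier arm and 36.6 and 20.3 at those of the later.

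Some pairs show the size of these differences. Between neighbours on chromosome 10, the log2 ratio of Dcn to Lum went from -1.88 ± 0.47 (SD, n = 6) in the earlier libraries to -0.63 ± 0.07 (n = 6) in the later ones, a shift of 1.25 without overlap (exact permutation test, adjusted p = 0.00573). Within class I, Aspn gained 1.28 on Dcn and 2.43 on Bgn (exact permutation tests, adjusted p = 0.00573 each). Aspn also gained 1.83 on Ogn, which lies beyond Omd on chromosome 13 (exact permutation test, adjusted p = 0.00573). For Aspn and its neighbour Omd the shift of 0.91 did not pass (exact permutation test, adjusted p = 0.0711). Epyc lost 2.21 to Kera, its neighbour (exact permutation test, adjusted p = 0.00573). Pairs such as Lum and Bgn, with a shift of 0.09 in favour of Bgn, and Omd and Kera, with one of 0.05 in favour of Omd, did not pass, which does not show that they rose alike. With E11 in place of E12, 29 pairs passed. With E12.5 and E14.5 alone, 32 of 45 pairs had ratios without overlap, but 3 libraries against 3 cannot give a p below 0.1. Over those 2 stages the ratio of Bgn to Lum moved the other way, by -0.38 without overlap (exact permutation test, p = 0.1). Prelp then rose less than each of the 9 others without overlap, and its ratio to Epyc moved by -1.76, so the order at the low end depends on the stages taken.

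**Figure D4:**
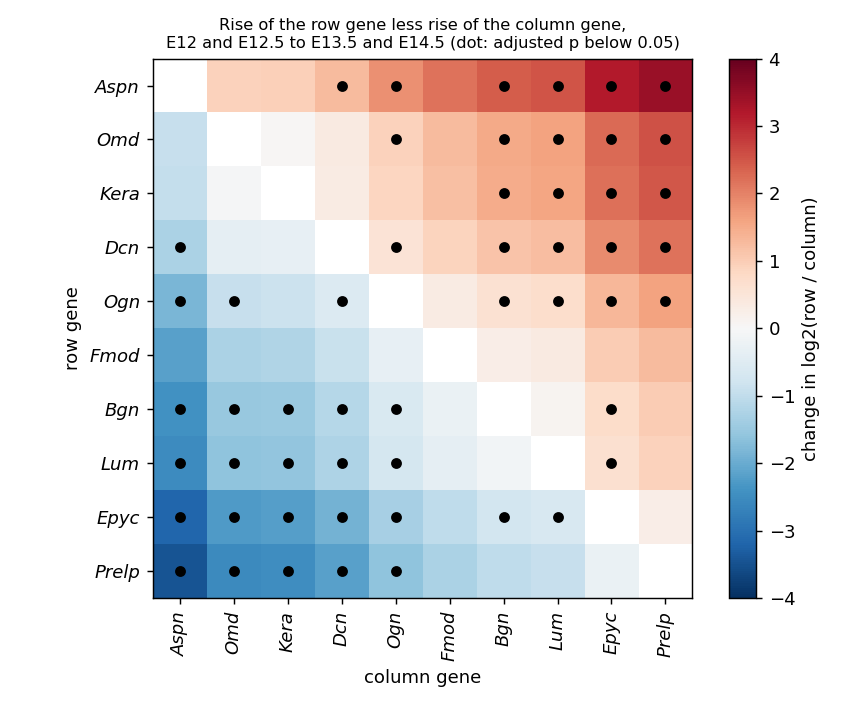
Change in the log2 ratio of the row gene to the column gene between the 6 libraries of E12 and E12.5 and the 6 of E13.5 and E14.5 (colour); genes are ordered by the size of their own rise, and dots mark pairs with an adjusted p below 0.05 in the exact permutation test. Aspn at the top rose more than 6 of 9 members, Epyc and Prelp at the bottom less than 7 and 5, and the Fmod row and column hold no dots.

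Levels of different members were compared per kilobase of gene length, as CPM per kilobase. With the lengths deposited beside the counts, Lum led at E14.5 with 320.5 ± 8.06, followed by Ogn (88.6 ± 7.39) and Dcn (88.5 ± 6.12), whose libraries overlapped. Then came Aspn (55.6 ± 6.78), Bgn (36.3 ± 1.59), Epyc (9.06 ± 0.331), Fmod (6.15 ± 0.809), Kera (4.99 ± 0.438), Omd (2.29 ± 0.313) and Prelp (1.09 ± 0.103), each apart from its neighbours. At E8.5 the order was Lum (11.8 ± 1.22), Bgn (5.33 ± 0.424) and, far below, Dcn (0.230 ± 0.0497) and Ogn (0.223 ± 0.151), then Prelp, Fmod, Aspn and Omd. From Dcn to Aspn, the libraries of each gene overlapped those of the next. Lum and Bgn thus held 65.8% and 29.8% of the family total per kilobase at E8.5, and 52.3% and 5.94% at E14.5. Dcn went from 1.30% to 14.4%, Aspn from 0.376% to 9.05% and Ogn from 1.22% to 14.4%.

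This order depends on the length used. The deposited length of Dcn is 5838 bases, 3.32 times that of its longest coding transcript (1758 bases), and that of Bgn is 6099 bases against 2419. Per kilobase of the longest coding transcript, a length chosen after the data had been seen, Dcn stood at 293.8 ± 20.3 at E14.5, next to Lum at 320.5 ± 8.06, and Bgn at 91.6 ± 4.02 overlapped Ogn at 88.6 ± 7.39. The ratio of Lum to Dcn at E14.5 was 3.63 ± 0.23 (n = 3) with deposited lengths, 1.52 with no length correction and 1.09 with the coding transcript. At E8.5 Bgn and Lum overlapped on that scale, at 13.4 ± 1.07 and 11.8 ± 1.22.

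**Figure D5:**
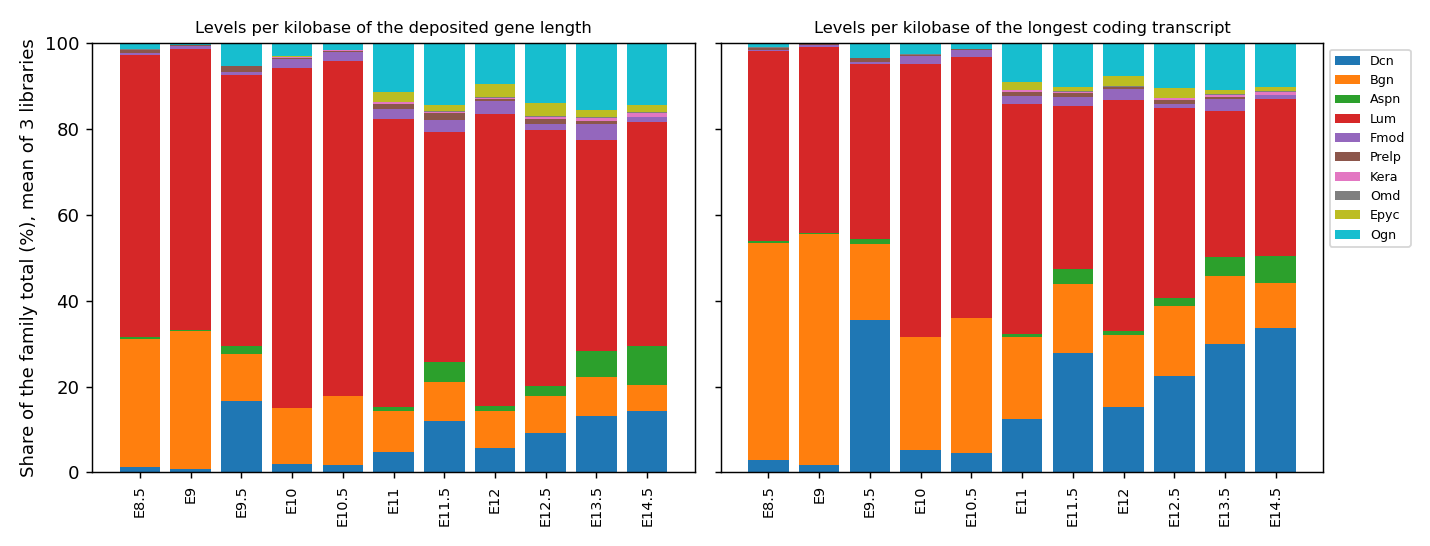
Share of each gene in the family total (vertical axis, percent, mean of 3 libraries) by stage, with levels per kilobase of the deposited gene length (left) and of the longest coding transcript (right). On the left Lum holds 65.8% at E8.5 and 52.3% at E14.5; Dcn holds 14.4% at E14.5 on the left and 33.6% on the right.

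How alike the courses were was described by Pearson's r of stage means in log2 CPM over the 11 stages. These points share libraries and a common rise with age, so the values are high throughout and carry no test. The highest among members were Dcn and Ogn (0.970), Bgn and Omd (0.966) and Dcn and Aspn (0.963), and the lowest was Omd and Prelp (0.696). Each of these 3 closest pairs lay on different chromosomes. Among neighbours on chromosome 10, r was 0.944 for Dcn and Lum, 0.919 for Lum and Kera and 0.913 for Kera and Epyc. On chromosome 13 it was 0.922 for Aspn and Omd and 0.834 for Omd and Ogn, and on chromosome 1 0.779 for Fmod and Prelp. With other members between them, r was 0.935 for Aspn and Ogn, 0.855 for Dcn and Kera, 0.852 for Dcn and Epyc and 0.904 for Lum and Epyc.

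Outside the family, the 3 tested genes with the highest r for Dcn were Ifi27 (0.990), the water channel gene Aqp1 (0.989) and Samd9l (0.987), and Aqp1 (0.982), Trim12a (0.982) and the collagen gene Col8a1 (0.980) were those for Ogn. For Aspn they were Enpep (0.975), Gbp6 (0.973) and the caveolin gene Cav1 (0.971), and for Bgn Rpl39l (0.990), Shisa5 (0.987) and Wnt2 (0.986). Lum ran with Emp3 (0.987), Fkbp7 (0.987) and C1qtnf2 (0.982), and Fmod with Ifngr2 (0.984) and Loxl1 (0.981), a crosslinker of elastic fibres. Epyc ran with Wif1 (0.994), a secreted Wnt inhibitor, Tnmd (0.990), the tendon gene tenomodulin, and Cpxm2 (0.989). For Kera they were Myh3 (0.990), the myosin of embryonic muscle, Col16a1 (0.989) and Ccn4 (0.988). Omd was followed by Ldb2 (0.988), Hrc (0.986) and Sult5a1 (0.985), and Prelp less closely by Pcp4 (0.975), Cyp1b1 (0.942) and Nxt2 (0.934).

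Other genes of the pathway were counted by lists between E8.5 and E14.5, where 41.1% of all genes were higher and 33.5% lower. Among 8 further genes of the family, 6 rose, 0 fell and 2 did not pass, with a median log2 fold change of 2.04. Ecm2, which lies beside Aspn, rose by 4.08 ± 0.34 to 7.92 ± 1.14 CPM, Podnl1 by 3.76 ± 0.69 to 2.17 ± 0.259 and Podn, which encodes podocan, by 2.86 ± 0.23 to 23.0 ± 0.895 CPM.

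Collagens, the partners that these proteins bind, moved in the same direction. Of 14 genes of fibrillar, fibril-associated and type VI collagens 13 rose and 1 fell, with a median of 4.0. Col6a3 rose by 7.74 ± 0.28 to 392 ± 23.5 CPM, Col14a1 by 7.30 ± 0.25 to 129 ± 2.91 and Col1a1, the main chain of bone collagen, by 6.70 ± 0.20 to 1882 ± 120 CPM. The one that fell was Col2a1, the collagen of cartilage, by 0.71 ± 0.14 to 266 ± 15.1 CPM, a call that was lost when libraries were scaled by totals alone.

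Enzymes that build the sugar chains had medians nearer to 0. In the synthesis of the linker that starts each chain, 1 of 7 rose, 1 fell and 5 did not pass: B4galt7 by 0.28 ± 0.09 and B3galt6 by -0.43 ± 0.13, and under other scalings between 0 and 5 of the 7 rose. For chondroitin and dermatan sulfate chains 10 of 16 rose, 4 fell and 2 did not pass, with a median of 0.77. The sulfotransferase gene Chst13 rose by 3.61 ± 0.62 to 1.69 ± 0.281 CPM, Csgalnact1, which starts the chain, by 2.69 ± 0.24 to 10.6 ± 1.29 and Chst15 by 2.10 ± 0.13 to 32.1 ± 0.968. For keratan sulfate chains, 4 of 8 rose, 2 fell and 2 did not pass, with a median of 0.15, close to that of all genes. Chst1 rose by 1.66 ± 0.14 and Chst5 by 1.52 ± 0.41, while Chst2 fell by 1.21 ± 0.08 to 33.5 ± 2.42 CPM.

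Of 10 tested genes, from a list of 11, for proteases and a helper that act on these proteoglycans or their partners, 9 rose, 0 fell and 1 did not pass, with a median of 1.68. Adamts5, which encodes an aggrecanase, rose by 3.90 ± 0.13 to 40.7 ± 2.64 CPM and Bmp1, the procollagen protease that also trims biglycan, by 2.59 ± 0.10 to 334 ± 7.97. Mmp3 went from no count to 0.155 ± 0.145 CPM, a call lost without library a of E14.5. Its highest mean was 1.38 ± 0.0987 CPM at E9.5, and it was without a count from E10 to E12.5. Among 14 ligands and receptors, 9 rose, 2 fell and 3 did not pass, with a median of 1.28. Ccn4 rose by 4.65 ± 0.17 to 80.9 ± 3.77 CPM, Egfr, a receptor that decorin binds, by 4.02 ± 0.20 to 76.6 ± 2.30 and Tgfb3 by 3.48 ± 0.13 to 53.8 ± 2.51.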

How the data were processed

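Raw counts per gene were taken as deposited, whole numbers that the authors did not normalize, per the file headers and the values. Per the submitters' processing notes, cutadapt 1.9.1, HISAT2 2.0.1, HTSeq 0.6.1 and GRCm38 were used. Annotation release and strand setting: not given in the sources used here. The other deposited value, the exonic length of each gene, served only for levels per kilobase and the length correction. Symbols came from GENCODE M21 (55141 of 55401 genes). Columns were tied to stages by name. Their letters could not be tied to the labels' replicate numbers.

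Counts were fitted with edgeR 4.0.16 in R 4.3.3: expression filter, TMM factors (0.797 to 1.175), 1 mean per stage over all 33 libraries, 22 residual degrees of freedom, quasi-likelihood tests, Benjamini-Hochberg over 20073 genes, threshold 0.05. Log2 CPM used a prior count of 2. A group with no count was set at 3 counts. Fits were tested on simulated data. No 2 libraries of a stage held identical counts. The named genes are all 10 members, the 3 largest passing changes of each list, the 3 most similar genes of each member (at least 5 CPM in a stage; 1 of those for Fmod is not reported here), and single markers that were chosen after their values were seen, as was Col2a1. The members and lists were chosen with earlier results of these data known. Alternatives were other scalings and filters, DESeq2 1.42.0, the column letter as a block, a length correction, each library left out and stages left out, of which leaving out E9.5 and the coding transcript length were added after seeing the data.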

Additional observations from a re-analysis of the deposited data

How the results depend on the processing

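With 1 library left out, 540 values were recomputed, among them totals of all genes called and shares of calls that were higher. All counts of members kept within 1.5 times their value. Members called were 10 at E14.5 against E8.5, 3 to 5 at E10.5 against E8.5, 9 to 10 at E12.5 against E10.5 and 9 at E14.5 against E12.5. There were 58 to 64 calls over the steps, 23 to 27 pairs that differed in their rise, and 8 members with an onset by E11. For single members, 4076 of 4154 recomputed log2 fold changes kept their direction and side of the threshold, 73 lost the call, 4 gained it and 1 changed sign, that of Bgn from E11.5 to E12 (-0.14 with library totals alone). Of 420 recomputed onsets 402 were the same. With library totals alone in place of TMM factors, the share of calls that were higher became 71.3% for E14.5 against E8.5 (55.0% otherwise), 72.5% for E10.5 against E8.5 (57.0%), 68.4% for E12.5 against E10.5 (52.2%) and 58.4% for E14.5 against E12.5 (46.9%), and the median of all genes moved by 0.43, 0.17, 0.12 and 0.14 on the log2 scale. With the gene length trend removed, the share for E10.5 against E8.5 was 40.4%. The ratio of Lum to Dcn at E14.5, 3.63 per kilobase, was 1.52 without length correction and 1.09 with the coding transcript length. Without the E9.5 libraries, or without those of E11.5, E12 and E13.5, the members called were 10, 4 or 5, 10 and 9 in the 4 comparisons, and calls over all steps could not be counted.

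The column letters do not pair the libraries: deviations from the stage means correlated at -0.003 (median over 165 same-letter pairs, -0.58 to 0.18), and 6 of 33 libraries were closest to their own letter. With the letter as a block, 10, 4, 10 and 9 members were called in the 4 comparisons and 60 calls over the steps between successive stages, against 61 without it, and Fmod from E11.5 to E12 did not pass (adjusted p = 0.0564). Depth limits Omd, Kera, Aspn and Epyc before E11, where a stage held at most 134 counts of any of them and often fewer than 10. It also limits Omd and Kera later, with 15 and 27 counts over the libraries of E12.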
